A study of Rattus norvegicus with 6 samples.

Results

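The cyclin-dependent kinase (CDK) inhibitors and the GADD45 proteins are the genes described here, in rat vascular smooth muscle cells whose long noncoding RNA MIAT was targeted. The set was named by gene symbol and holds 10 of the 18631 genes in the deposited tables, all 10 of them among the 13423 genes that passed the filter on low counts. It comprises the CIP/KIP inhibitors Cdkn1a, Cdkn1b and Cdkn1c, the INK4 inhibitors Cdkn2a, Cdkn2b, Cdkn2c and Cdkn2d, and Gadd45a, Gadd45b and Gadd45g. Libraries of polyadenylated RNA were made from 3 samples with the genotype label MIAT knockdown and from 3 samples titled Scr with the genotype label WT, called Scr control here. The same treatment text stands on the labels of both groups: siRNAs (short double-stranded RNAs) and ASOs (antisense oligonucleotides), 50 nM together, given for 72 h against MIAT. What the control cells received is not stated there. The labels name vessel as the tissue, with no strain, age or kind of vessel, and no separate cultures or animals, so the p-values below reflect a spread between libraries that could be technical alone.

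Progress from G1 into S phase depends on cyclins bound to CDKs, which phosphorylate the retinoblastoma protein and release E2F transcription factors. INK4 proteins bind CDK4 and CDK6 alone, whereas CIP/KIP proteins bind complete cyclin-CDK complexes, with CDK2 as their main target. GADD45 proteins are small stress-induced partners of the kinase MAP3K4, of PCNA and of CDK1, and link damage and growth signals to arrest and to the stress kinases p38 and JNK. In the vessel wall, p21 and p27, the products of Cdkn1a and Cdkn1b, are known as brakes on smooth muscle growth after injury.

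The promoter windows of the GADD45 genes are shown because these 3 paralogs lay far apart in their difference between the groups. They run from 250 bases before to 50 bases after the gene start and come from RefSeq on the GRCr8 assembly, in which all 10 members were matched and 9 had a promoter window in the table. The authors' build is not given in the sources used here, so the coordinates belong to the sequences alone. Letters are 5′ to 3′ on the gene's strand, and capitals mark matches, on either strand, to CCAAT, the GC box GGGCGG, the E-box CACGTG, the octamer ATTTGCAT or the TATA box TATAAA. The cyclic AMP response element TGACGTCA and the AP-1 site TGANTCA were also searched and had no match in these windows.
Gadd45a, chr4:97486750-97487049, minus strand: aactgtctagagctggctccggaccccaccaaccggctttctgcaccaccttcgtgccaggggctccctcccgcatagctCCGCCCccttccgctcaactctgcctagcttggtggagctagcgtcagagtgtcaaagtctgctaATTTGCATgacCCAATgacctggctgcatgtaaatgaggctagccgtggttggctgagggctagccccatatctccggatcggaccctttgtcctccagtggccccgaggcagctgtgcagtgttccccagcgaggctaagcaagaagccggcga
Gadd45b, chr7:9430669-9430968, minus strand: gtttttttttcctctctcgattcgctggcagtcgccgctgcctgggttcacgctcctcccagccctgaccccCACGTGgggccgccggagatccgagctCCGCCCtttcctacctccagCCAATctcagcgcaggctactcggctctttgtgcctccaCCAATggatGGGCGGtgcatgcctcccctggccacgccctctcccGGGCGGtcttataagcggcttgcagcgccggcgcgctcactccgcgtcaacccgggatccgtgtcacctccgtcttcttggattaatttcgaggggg
Gadd45g, chr17:13530302-13530601, minus strand: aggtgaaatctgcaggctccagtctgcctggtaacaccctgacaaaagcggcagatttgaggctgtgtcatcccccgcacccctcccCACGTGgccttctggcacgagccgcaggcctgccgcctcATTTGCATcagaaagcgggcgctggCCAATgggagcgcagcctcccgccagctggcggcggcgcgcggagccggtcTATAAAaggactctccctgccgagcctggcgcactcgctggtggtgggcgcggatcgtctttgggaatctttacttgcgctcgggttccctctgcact
All 3 windows held CCAAT, first at -94, -131 and -99 bases from the start in Gadd45a, Gadd45b and Gadd45g, and so did 37.5% of 33469 promoter windows of this length. Gadd45a and Gadd45g shared the octamer, found in 1.78% of all windows, while Gadd45b and Gadd45g shared the E-box, found in 6.42%. The GC box stood once in Gadd45a and 3 times in Gadd45b (33.1% of all windows), and the TATA box in Gadd45g (14.2%). Among the other members, the GC box stood 5 times in Cdkn2d, 3 times in Cdkn2b and once each in Cdkn1b, Cdkn2a and Cdkn2c. The cyclic AMP response element was matched in Cdkn2b (1.83% of all windows) and CCAAT at 2 places in Cdkn1b. The AP-1 site (7.33% of all windows) had no match in any member's window. The window used for Cdkn1a held none of the motifs. Sequence outside that window, including any other start of Cdkn1a, was not searched, so their absence from the Cdkn1a promoter as a whole was not tested. A match describes the letters only.

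Total counts ranged from 18173111 to 18598394 in the knockdown libraries and from 17793811 to 20121161 in the control libraries. Miat itself was not analysed here, so the groups are named by their labels. All 8 smooth muscle markers were detected, with a summed level of 5261 to 7652 CPM in knockdown and 5946 to 7623 CPM in control libraries (CPM, counts scaled to a library of 1000000 reads after TMM normalization, as everywhere below). Acta2 and Tagln hold most of that sum, and of the 8 genes Myh11 and Lmod1 fell, by 0.51 and 0.30 on the log2 scale. The 8 fibroblast and adventitial markers summed to 537 to 802 against 840 to 1164 CPM, so the groups did not overlap, and 4 of the 5 that were tested fell, Pdgfra and Lum by 0.57 and 0.55 on the log2 scale. The 7 endothelial markers in the table summed to 4.202 to 5.20 against 5.35 to 9.57 CPM, with 2 reads of Cdh5, 2 of Tie1 and 3 of Emcn over all 6 libraries, and Kdr fell by 1.02. The 7 macrophage and leukocyte markers summed to 22.3 to 26.5 against 21.6 to 34.9 CPM, with 1 read of Ptprc over all 6 libraries. The 5 pericyte markers in the table summed to 27.5 to 35.5 against 30.6 to 44.97 CPM, with a fall of 0.28 for Cspg4, and the 5 epithelial markers to 1.56 to 2.13 against 1.63 to 2.49 CPM. The calls of Lmod1, Kdr and Cspg4 ended without pair 1 (-0.36, -0.94 and -0.21) and without pair 2 (-0.39, -1.15 and -0.28), those of Lmod1 and Cspg4 with total count scaling (-0.20 and -0.17), that of Cspg4 with the length correction (-0.17), and those of Myh11 and Cspg4 in DESeq2 with the block (-0.52 and -0.29). Among the fibroblast markers the call of Dpt (-0.63) ended without pairs 1, 2 and 3 in turn (-0.67, -0.72 and -0.45) and in DESeq2 with the block (-0.61). The part of these marker differences in the results below was not tested, and in bulk RNA fewer cells of a type and less RNA per cell cannot be told apart.

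The 10 genes spanned a wide range of levels. In deposited FPKM, which are scaled by gene length and can be compared between genes, the control means ran in the order Cdkn1a, Gadd45g, Gadd45b, Gadd45a, Cdkn2a, Cdkn1b, Cdkn2c, Cdkn2d, Cdkn2b and Cdkn1c. Cdkn1a, which encodes p21, averaged 91.6 ± 10.8 FPKM in knockdown and 103 ± 5.23 FPKM in control libraries (SD, n = 3 each, as for all means here), above 95.2% of tested genes in the controls. Gadd45g averaged 95.8 ± 16.7 against 94.6 ± 13.01 FPKM. Control libraries of Cdkn1a and Gadd45g overlapped, as did those of Gadd45b and Gadd45a, of Cdkn2c and Cdkn2d, of Cdkn2d and Cdkn2b, and of Cdkn2b and Cdkn1c, so the ranges of these neighbours were not separate. Within each control library, Cdkn2c nonetheless exceeded Cdkn2d, and Cdkn2b exceeded Cdkn1c, in 3 of 3. The other neighbours in the order did not overlap in the controls. In the knockdown means Gadd45a stood at the head of the order, although Cdkn1a was above it in knockdown library 2 (86.2 against 80.6 FPKM). Gadd45a exceeded Gadd45b in 3 of 3 libraries, whereas Gadd45b exceeded Gadd45a in 2 of 3 control libraries.

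**Figure D1:**
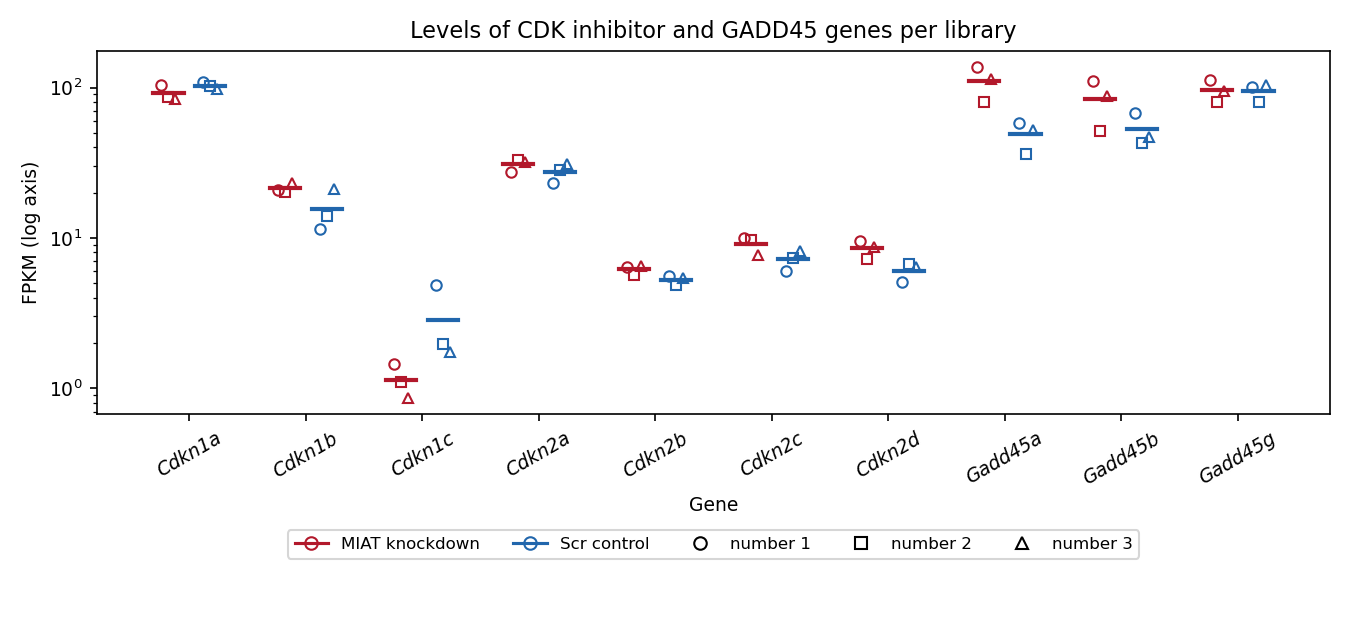
Each point is 1 library, with FPKM on a log axis for each gene, knockdown libraries in red left of control libraries in blue, symbols giving the library number and bars the mean of 3 libraries. Cdkn1a and Gadd45g lead in the controls, Gadd45a averages 110 FPKM in knockdown against 49.0 FPKM in control libraries, and Cdkn1c is lowest in both groups.

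The set was proposed with results of knockdown against control known, among them the fold changes of Gadd45a and Cdkn1c. The differences, standard errors and adjusted p-values of the 10 genes between the groups are therefore a description of these libraries and support nothing. Same-numbered libraries deviated together, so each difference is given also within the 3 pairs and from the edgeR fit that blocks on the replicate number. A gene is said to have risen or fallen at an adjusted p under 0.05 in that fit, over all tested genes. In the block fit 2 members rose, 2 fell and 6 did not pass, beside 21.6% of all tested genes called. Of all genes called in that fit 48.7% were higher in knockdown, and 77.5% of those called with scaling by total counts. Without the block 0 members and 0 genes were called by edgeR, with 3 members and 2576 genes (19.2%) at an unadjusted p under 0.05, and DESeq2 called 2 members and 699 genes. The median log2 fold change was 0.18 over the members and -0.01 over all tested genes in the block fit. The groups did not overlap for 4 of the 10, beside 26.0% of all genes.

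Among the CIP/KIP inhibitors Cdkn1a and Cdkn1c fell, and Cdkn1b did not pass. Cdkn1a stood at 237, 204 and 197 CPM in knockdown libraries 1 to 3, against 263, 255 and 254 CPM in control libraries 1 to 3. All 3 knockdown libraries lay below all 3 controls. Its log2 fold change was -0.28 (standard error 0.061, edgeR adjusted p = 0.0151 with the block and 0.181 without it), and -0.15, -0.32 and -0.37 within pairs 1 to 3. In FPKM, which the authors scaled by the library total, the groups overlapped, at 84.6 to 104 FPKM in knockdown and 97.6 to 108 FPKM in control libraries. This call ended without pair 2 (-0.26, edgeR adjusted p = 0.135) and with scaling by total counts (-0.17, 0.0635).

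Cdkn1b, which encodes p27, stood at 43.6, 43.7 and 49.5 CPM in knockdown libraries, against 25.6, 31.7 and 50.4 CPM in control libraries. Knockdown libraries lay close together while the controls spread widely, with control library 3 as high as the knockdown libraries. Its log2 difference was 0.77, 0.46 and -0.03 in pairs 1 to 3, and 0.39 in the block fit (standard error 0.13, edgeR adjusted p = 0.0655, and 0.468 without the block). Without pair 3 the value was 0.61 (edgeR adjusted p = 2.3e-10) and with total count scaling 0.50 (0.0175), and both settings gave a call. A fit without a pair leaves 1 residual degree of freedom, so its p-values say little about the spread of a single gene. Without pair 1 it was 0.21 (edgeR adjusted p = 0.283) and without pair 2 it was 0.36 (0.257).

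Cdkn1c encodes p57, an inhibitor expressed from the maternal allele in mammals, and had the fewest reads of the set. It was covered by 54, 41 and 33 reads in knockdown libraries, against 177, 74 and 72 reads in control libraries. In CPM these were 2.81, 2.20 and 1.71, against 10.04, 4.15 and 3.86. The groups did not overlap, and control library 1 stood well above the other controls. The log2 difference was -1.84, -0.92 and -1.17 in pairs 1 to 3, and -1.34 in the block fit (standard error 0.24, edgeR adjusted p = 0.00715, and 0.155 without the block). The value was -1.03 without pair 1, which ended the call (edgeR adjusted p = 0.0714), and -0.84 without control library 1 in the fit without the block.

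Of the summed CIP/KIP FPKM, Cdkn1b took 18.9 ± 2.42% in knockdown and 12.9 ± 4.29% in control libraries, and Cdkn1a took 80.1 ± 2.24% against 84.8 ± 3.34%, and both ranges overlapped between the groups. Cdkn1c took 0.985 ± 0.177% against 2.33 ± 1.36%, without overlap. The summed FPKM of the 3 genes was 114 ± 10.6 in knockdown and 121 ± 3.03 in control libraries, with overlap between the groups, and the sum of TMM-normalized CPM per kilobase 110 ± 8.28 against 126 ± 3.91, without overlap.

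No INK4 gene passed in the block fit, 0 of 4, beside 21.6% of all tested genes. Without the block 0 of 4 had an edgeR p under 0.05 before adjustment, beside 19.2% of all tested genes. In the block fit Cdkn2d had an edgeR p of 0.0481 before adjustment. Cdkn2a, whose locus encodes p16 and, in another reading frame, ARF, stood at 18.4, 22.8 and 21.7 CPM in knockdown libraries, against 16.6, 20.6 and 23.7 CPM in control libraries. The groups overlapped, and the counts per gene symbol do not separate the 2 products. Its log2 fold change in the block fit was 0.05 (standard error 0.095), and -0.09 with a correction for gene length. Cdkn2b, the TGF-beta-inducible p15, stood at 27.5, 25.3 and 28.5 CPM, against 25.6, 22.7 and 26.5 CPM. Its differences within pairs were nearly equal, 0.11, 0.15 and 0.11 on the log2 scale (block fit, edgeR adjusted p = 0.284).

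Cdkn2c, which encodes p18, stood at 13.4, 13.7 and 10.6 CPM in knockdown libraries, against 8.73, 10.9 and 12.6 CPM in control libraries. It was higher in pairs 1 and 2 (log2 differences 0.62 and 0.32) and lower in pair 3 (-0.24). Cdkn2d, which encodes p19, stood at 10.8, 8.53 and 10.1 CPM, against 6.12, 8.25 and 8.30 CPM. Its groups did not overlap, though knockdown library 2 lay just above the highest control, and its log2 difference was 0.82, 0.05 and 0.28 in pairs 1 to 3. The log2 fold change was 0.38 (standard error 0.16, edgeR adjusted p = 0.135 with the block). Without pair 3 both genes were called, at log2 fold changes of 0.46 for Cdkn2c and 0.43 for Cdkn2d (edgeR adjusted p = 0.00543 and 0.0347, on 1 residual degree of freedom). Without pair 1 the values were 0.04 and 0.17 (edgeR adjusted p = 0.902 and 0.597), and without pair 2 they were 0.18 and 0.54 (0.648 and 0.144).

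Summed over the INK4 genes, the level was 53.4, 55.6 and 54.7 FPKM in knockdown libraries, against 39.9, 47.3 and 51.1 FPKM in control libraries. On this scale all knockdown sums exceeded all control sums. In TMM-normalized CPM per kilobase the sums were 50.5, 54.5 and 52.8 in knockdown libraries, against 40.2, 48.7 and 55.0 in control libraries, so control library 3 exceeded every knockdown library. Per length, Cdkn2a led the family in each library, with 706 bases against 4559 for Cdkn2b. In CPM, which are not scaled by length, Cdkn2b stood above Cdkn2a in every library. Cdkn2a held 56.4 ± 4.13% of the sum in knockdown and 59.7 ± 1.36% in control libraries, and Cdkn2b 11.3 ± 0.996% against 11.6 ± 2.05%.

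**Figure D2:**
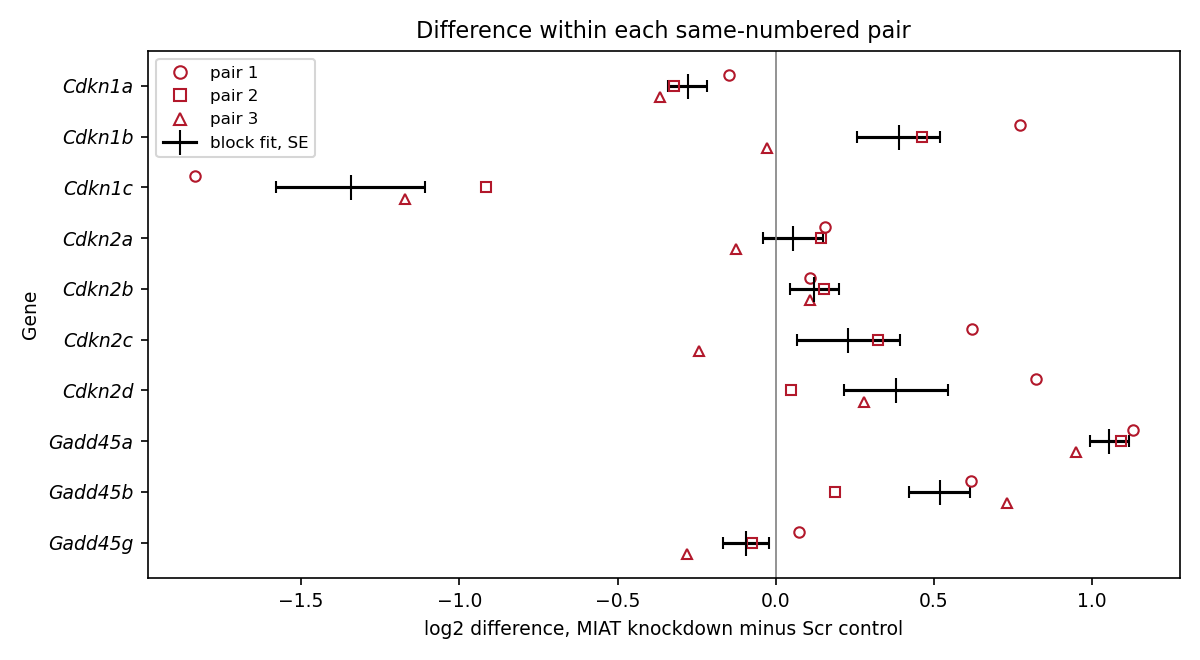
Points give the log2 difference in CPM, knockdown minus control, within each same-numbered pair. The black tick gives the estimate of the block fit, and its bar the standard error derived from the F statistic. Gadd45a lies at 1.13, 1.09 and 0.95 in its 3 pairs, Cdkn1c lies below -0.9 in all 3, and Cdkn1b, Cdkn2a, Cdkn2c and Gadd45g have pairs on either side of 0.

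Of the GADD45 genes, Gadd45a and Gadd45b rose and Gadd45g did not pass. Gadd45a stood at 157, 95.9 and 132 CPM in knockdown libraries, against 71.6, 45.1 and 68.7 CPM in control libraries. All knockdown libraries exceeded all controls, although the levels within a group varied. Its log2 difference was 1.13, 1.09 and 0.95 in pairs 1 to 3, and 1.05 in the block fit, a 2.08-fold difference (standard error 0.061, edgeR adjusted p = 0.000361, and 0.110 without the block). The call was kept in each of the 6 other fits made with the block. Of all 22 alternatives to the fit without the block, 8 gave a call.

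Gadd45b stood at 134, 64.5 and 108 CPM in knockdown libraries, against 87.6, 56.6 and 64.8 CPM in control libraries. The groups overlapped because knockdown library 2 was low, yet the gene was higher in 3 of 3 pairs, by 0.62, 0.19 and 0.73 on the log2 scale. The block fit gave 0.52, a 1.43-fold difference (standard error 0.096, edgeR adjusted p = 0.00865, and 0.336 without the block). The call was kept in each other fit made with the block, and 7 of all 22 alternatives gave a call for Gadd45b. Without the block the value was 0.31 without knockdown library 1, the lowest of the fits.

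Gadd45g stood at 113, 82.6 and 97.2 CPM, against 107, 87.0 and 118 CPM, and the groups overlapped. Its log2 difference was 0.07, -0.07 and -0.28 in pairs 1 to 3, and -0.09 in the block fit (standard error 0.073, edgeR adjusted p = 0.391). With total count scaling and the block the value was 0.01.

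Gadd45a made up 37.8%, 38.1% and 38.3% of the summed GADD45 FPKM in knockdown libraries, against 25.8%, 22.7% and 25.9% in control libraries. The share was nearly constant within the knockdown group although the sum itself was 361, 212 and 295 FPKM, against 227, 159 and 203 FPKM in the controls. Gadd45g held 33.7 ± 3.40% in knockdown and 48.5 ± 3.63% in control libraries, and Gadd45b 28.3 ± 3.45% against 26.8 ± 3.38%. A share within a family does not depend on the scaling between libraries.

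**Figure D3:**
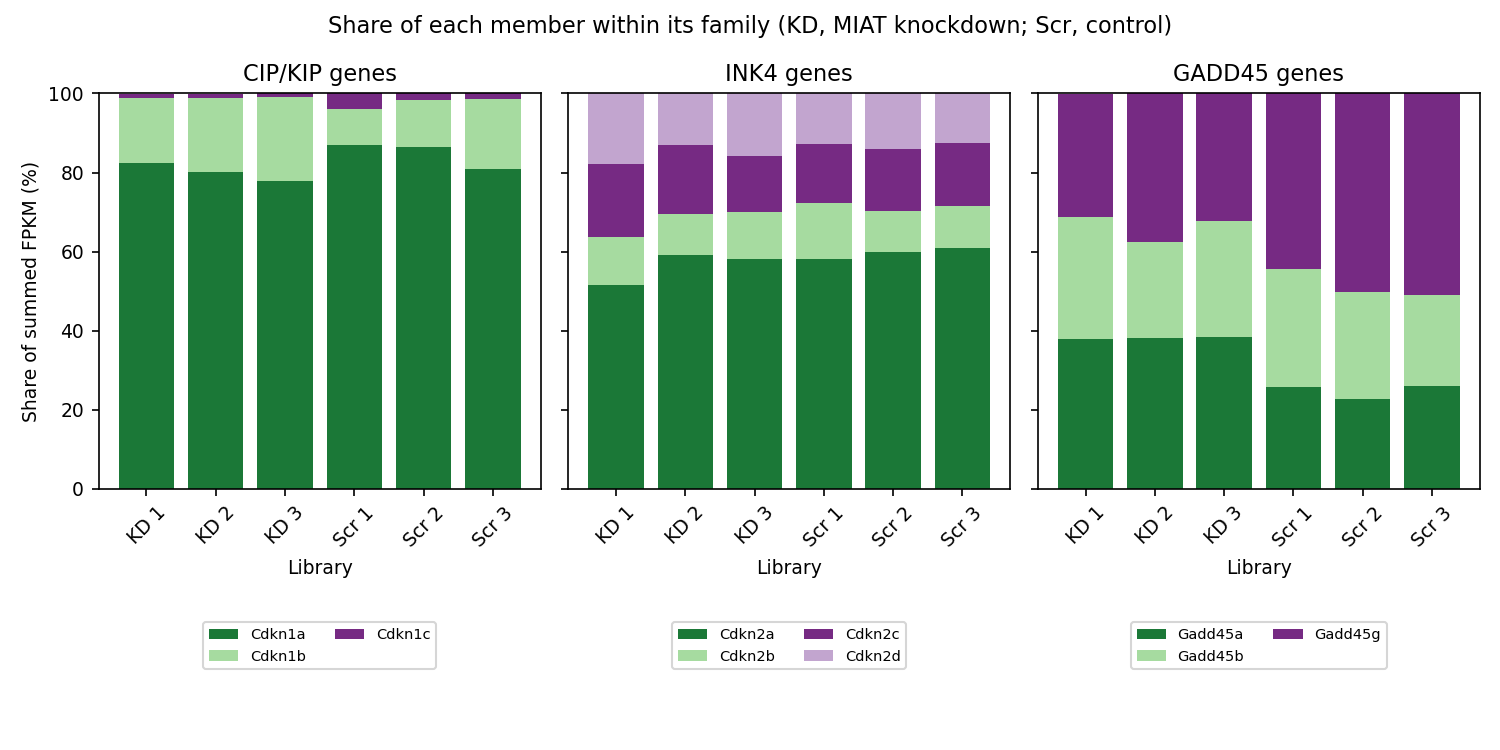
Stacked bars give the share of each gene in the summed FPKM of its family for each library, with knockdown libraries 1 to 3 left of control libraries 1 to 3. Gadd45a covers 37.8% to 38.3% of the GADD45 sum in knockdown against 22.7% to 25.9% in control libraries, while Cdkn2a covers at least 51.6% of the INK4 sum in all 6 libraries.

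The library numbers gave a measure that the choice of genes did not use. The 2 number terms of the block fit were tested together with edgeR's quasi-likelihood F test over all genes, which called 18.8% of the 13423 genes and 4 of the 10 members. What the numbers stand for is not given in the sources used here. All 3 GADD45 genes differed between numbers, with adjusted p = 0.00117 for Gadd45a, 0.00463 for Gadd45b and 0.0320 for Gadd45g in edgeR. Number 2 libraries were the lowest in each group for all 3, at log2 differences from number 1 of -0.69, -0.84 and -0.38, against -0.15, -0.37 and -0.04 for number 3. Cdkn1c also differed (edgeR adjusted p = 0.0419), with number 1 libraries highest in both groups and log2 differences from number 1 of -0.89 for number 2 and -1.11 for number 3. The Cdkn1c call ended in DESeq2's likelihood ratio test (adjusted p = 0.112). Cdkn1b missed the threshold (edgeR adjusted p = 0.0668) and passed without a low-count filter (0.0132) and in DESeq2 (0.0298). The number term of Gadd45b, -0.84 between numbers 2 and 1, exceeded in size its 0.52 between the groups.

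**Figure D4:**
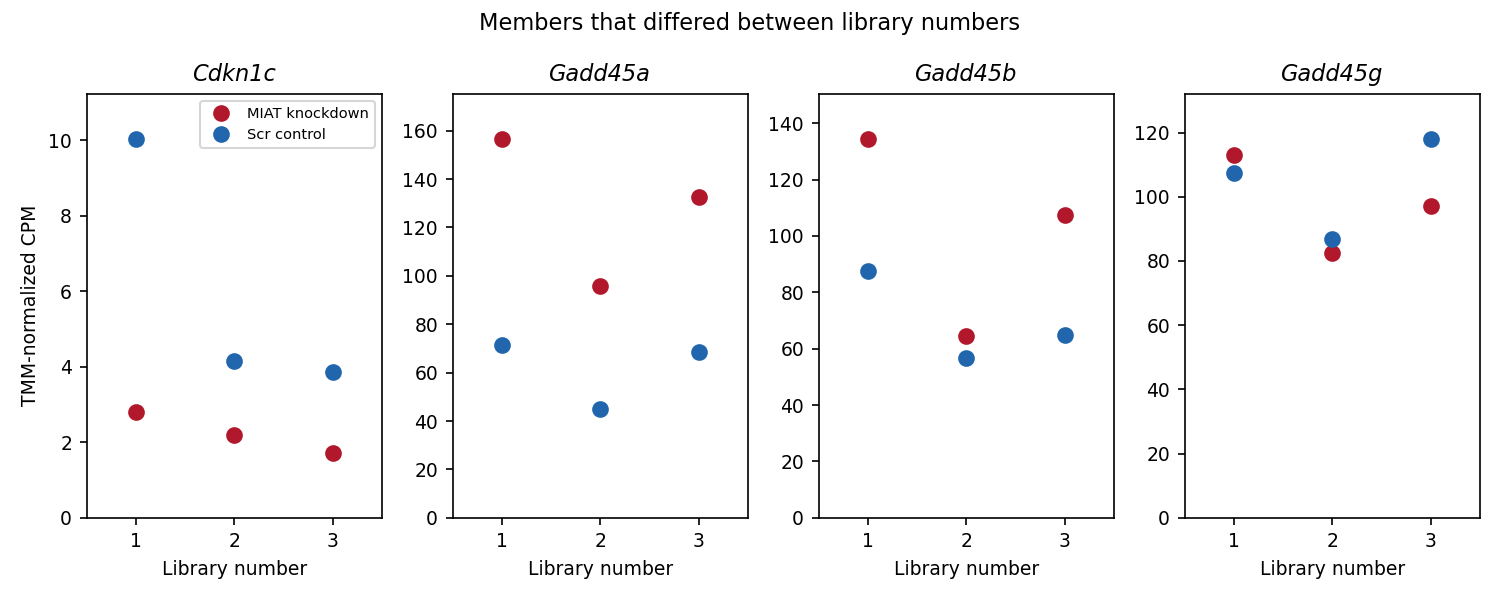
TMM-normalized CPM of the 4 members that differed between library numbers, with the library number on the horizontal axis, knockdown libraries in red and control libraries in blue, and an axis that starts at 0. The GADD45 genes are lowest in number 2 libraries of both groups, and Cdkn1c is highest in number 1 libraries of both.

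Genes whose levels ran most like a member's across the 6 libraries were sought by Pearson's r of log2 CPM among genes with a mean of at least 5 CPM. The 6 libraries share 2 groups and 3 numbers, and the best of 10477 genes is high by selection, so these values only describe. For Gadd45a they were Axin1 (r = 0.997), Vdac3 (0.995) and LOC103690996 (0.995). For Gadd45b they were Usp49 (0.986), Foxf2 (0.985) and Rhbdd3 (0.983), and for Gadd45g Rflnb (0.996), Zfp579 (0.972) and Col8a2 (0.971). For Cdkn1a they were Fam102b (0.990), Safb2 (0.984) and Rptor (0.978), for Cdkn1b Khdrbs1 (0.999), Prdx4 (0.995) and Actl6a (0.993), and for Cdkn1c Catsperd, Slc26a2 and LOC102550657 (0.992, 0.992 and 0.991). For the INK4 genes the most alike were Atg14 with Cdkn2a (0.991), Arl8a with Cdkn2b (0.992), Sri with Cdkn2c (0.986) and Yy2 with Cdkn2d (0.990).

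The proteins that these inhibitors act on were described from lists of other pathway genes, chosen by function and read from the block fit, in which 10.5% of all genes rose and 11.1% fell. Of 20 tested cyclins, CDKs and their activators and inhibitory kinases, 11 rose and 1 fell, 8 missed the threshold, and the median log2 fold change was 0.33. Ccne2 (cyclin E2), Ccna2 (cyclin A2) and Wee1, the kinase that restrains CDK1, rose by 0.79, 0.74 and 0.62. Ccnd1, which encodes the cyclin D1 that INK4 proteins keep from CDK4, was chosen after its values were seen and rose by 0.59. Its groups overlapped, at 93.9 to 226 CPM in knockdown and 56.4 to 148 CPM in control libraries (edgeR adjusted p = 0.493 without the block). The number term of Ccnd1, -1.33 between numbers 3 and 1, exceeded in size its difference between the groups. Cdk2, the main CIP/KIP target, stood at 22.8 ± 2.72 against 18.3 ± 2.89 CPM (log2 fold change 0.32, edgeR adjusted p = 0.0865) and was called with total count scaling (0.43). Ccnd2 was the gene that fell (-0.35), a call that ended without pair 1 (-0.39), without pair 2 (-0.35), with total count scaling (-0.24) and in DESeq2 with the block (-0.36). Without pairs 1, 2 and 3 in turn, 7, 7 and 13 of this list rose. Over all genes, too, fewer were called without pair 1 or pair 2 and more without pair 3, as given at the end. Throughout, the end of a call in such a fit does not by itself show that a gene depended on that pair. The log2 fold changes printed with these calls give the estimates without the pair.

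Of 18 tested retinoblastoma family, E2F, DP and DREAM complex genes, 6 rose and 2 fell, 10 missed the threshold, and the median was 0.32. Mybl2, E2f5 and E2f1 rose by 0.59, 0.49 and 0.43. The call of E2f5 ended without pair 1 (0.34), without pair 2 (0.64), with the length correction (0.43) and in DESeq2 with the block (0.48), and that of E2f1 without pair 2 (0.48), without pair 3 (0.25) and in DESeq2 with the block (0.43). The 2 that fell were Rb1, the retinoblastoma gene, and its relative Rbl2, by 0.38 and 0.36 on the log2 scale. Rb1 stood at 23.8 ± 2.81 against 31.0 ± 4.77 CPM and did not pass without pair 1 (-0.36), without pair 2 (-0.46) or with the length correction (-0.25), and Rbl2 did not pass without pair 2 (-0.32). Without pairs 1, 2 and 3, 3, 3 and 8 rose.

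CDK inhibitors are removed as proteins by ubiquitin ligases, of which SCF-SKP2 with its cofactor CKS1 acts on p27 and p57 and CRL4-DTL on p21. Of 18 tested ligase parts and PCNA, 4 rose and 2 fell, 12 missed the threshold, and the median was 0.09. Dtl rose by 0.74, Skp2 by 0.70 and Cks1b by 0.39. Skp2 stood at 10.8 ± 2.61 against 6.54 ± 0.429 CPM, with no overlap between the groups. Its call ended without pair 1 (0.59) and pair 2 (0.61), and that of Cks1b without pair 2 (0.39). The genes that fell were Cul4a and Ddb1, the scaffold and adaptor of the CRL4 ligase, by 0.23 and 0.26, and both calls ended without pair 1 (-0.24 and -0.25), without pair 2 (-0.25 and -0.29) and with total count scaling (-0.13 and -0.15), that of Cul4a also in DESeq2 with the block (-0.24). Without pairs 1, 2 and 3, 2, 2 and 5 genes rose.

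**Figure D5:**
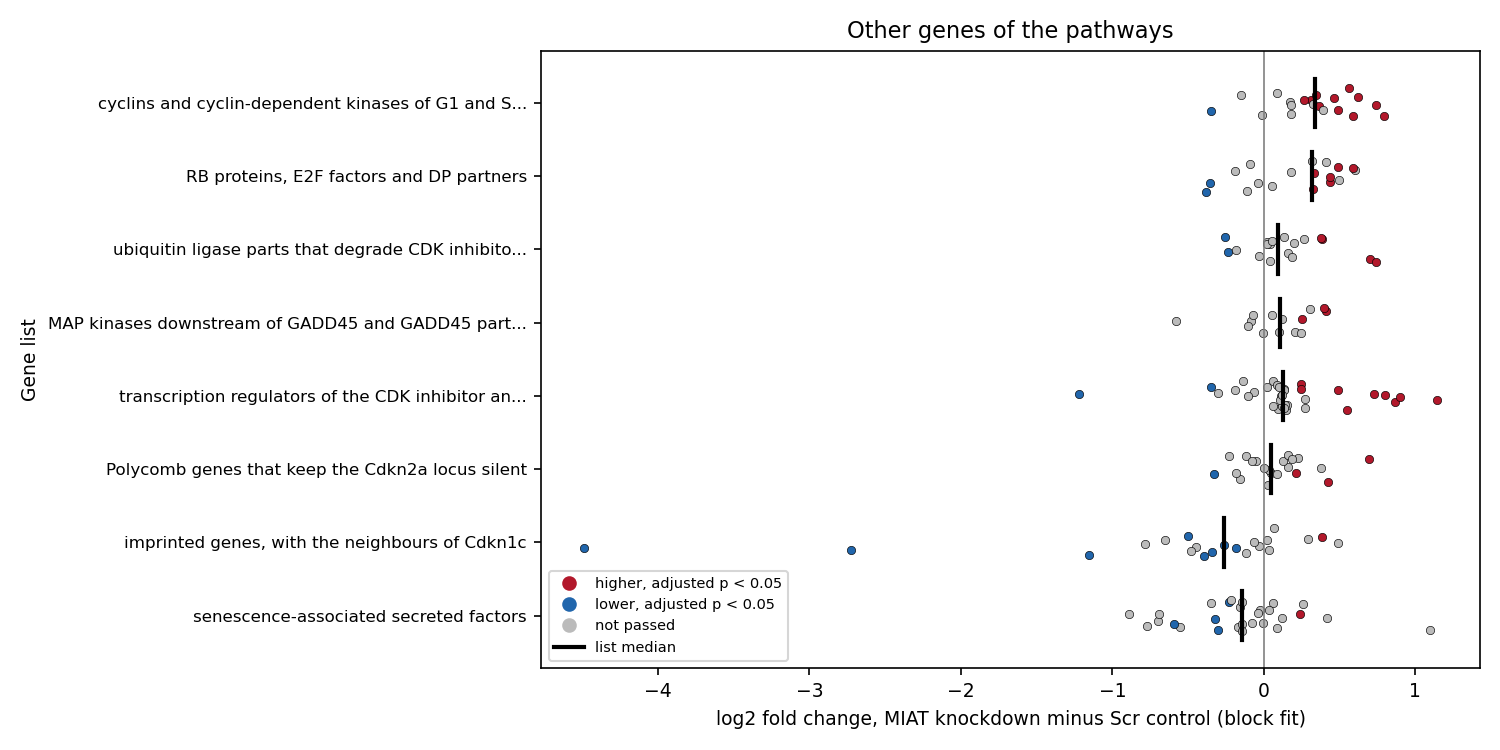
Each point is a tested gene of 1 of 8 pathway lists, at its log2 fold change in the block fit, knockdown minus control, coloured by its call, with a black bar at the list's median. The lists of cyclins and of E2F genes have medians of 0.33 and 0.32, and the imprinted genes the lowest, -0.27, with Zim1 leftmost at a fitted value that depends on the prior count.

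Of 14 tested MAP kinases and GADD45 partners, 3 rose and 0 fell, 11 missed the threshold, and the median was 0.11. The risers were Gadd45gip1, a GADD45-binding mitochondrial ribosome protein, the DNA glycosylase gene Tdg and the repair nuclease gene Apex1, by 0.41, 0.40 and 0.25, so none was a kinase. The call of Gadd45gip1 ended without pair 2 (0.48) and that of Apex1 without pair 1 (0.25) and pair 2 (0.31), those of both in DESeq2 with the block (0.40 and 0.24), and that of Apex1 with the length correction (0.16). The count was 2, 1 and 5 genes without pairs 1, 2 and 3. Map3k4, the kinase that GADD45 proteins bind and activate, stood at 23.7 ± 2.69 against 25.0 ± 1.01 CPM (edgeR adjusted p = 0.503).

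Among 34 tested transcription factors known to act on the CDK inhibitor or GADD45 genes, 9 rose and 2 fell, 23 missed the threshold, and the median was 0.13. Myc, which represses Cdkn1a and Cdkn2b together with MIZ1, rose by 1.14, Cebpb by 0.90 and Klf6 by 0.87. Zbtb17, which encodes MIZ1, stood at 28.4 ± 2.51 against 26.0 ± 1.32 CPM (edgeR adjusted p = 0.297). Foxo1 and Foxo3, activators of Cdkn1b, had log2 fold changes of 0.06 and 0.02 (picked with their values known). The genes that fell were Foxo4 (-0.35) and the scarce Hey1 (-1.22). Both calls ended without pair 1 (-0.28 and -1.16), without pair 2 (-0.37 and -1.06) and with total count scaling (-0.24 and -1.11), that of Hey1 also in DESeq2 with the block (-1.25), and 7, 5 and 13 genes rose without pairs 1, 2 and 3.

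Polycomb proteins keep the Cdkn2a locus silent in young cells. Of 21 tested Polycomb genes and their demethylases, 3 rose and 1 fell, 17 missed the threshold, and the median was 0.05. Kdm6b, a demethylase that removes the Polycomb mark, rose by 0.70, against 0.42 for Pcgf1 and 0.21 for Phc2, while Phc3 fell by 0.33. The calls of Pcgf1 and Phc2 ended without pair 1 (0.48 and 0.23), without pair 2 (0.40 and 0.23) and in DESeq2 with the block (0.42 and 0.20), that of Pcgf1 also without pair 3 (0.40) and with the length correction (0.41). That of Phc3 ended without pair 2 (-0.37), with total count scaling (-0.22) and in DESeq2 with the block (-0.34). In all, 1, 1 and 5 genes rose without pairs 1, 2 and 3. Bmi1 and Ezh2, chosen after their values were seen, had log2 fold changes of 0.03 and 0.16.

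Cdkn1c lies in an imprinted cluster. The list of imprinted genes, which holds neighbours of Cdkn1c and genes of other loci, had the lowest median of the pathway lists described here, -0.27. Of 21 tested, 8 fell, 1 rose and 12 did not pass, and without pairs 1, 2 and 3 the falls numbered 4, 4 and 10. Peg3, Igf2r and Gnas fell by 1.15, 0.50 and 0.39, with Peg3 at 9.25 ± 1.31 against 20.8 ± 5.16 CPM. Igf2, a growth factor gene of the Cdkn1c region, and Zim1, a neighbour of Peg3, were scarce and picked with their values known. Igf2 had 6, 2 and 5 reads in knockdown libraries, against 67, 11 and 14 reads in control libraries, and its call ended without pair 1 (-1.87) and pair 2 (-2.76). Zim1 had 1, 0 and 2 reads, against 34, 27 and 12 reads. The gene that rose was Peg12 (0.39), without a call when pair 1 (0.31) or pair 2 (0.48) was left out, or in DESeq2 with the block (0.38). Phlda2, a neighbour of Cdkn1c that is imprinted in mouse and human, stood at 1.82 ± 0.617 against 1.28 ± 0.276 CPM and did not pass. Further listed neighbours, named with their values known, were Slc22a18 (-0.45), Nap1l4 (0.03), Tssc4 (0.02) and the scarce Ascl2 (0.29), which did not pass, and Cd81, which fell (-0.18).

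Of 28 tested secreted factors associated with senescence, a state of lasting arrest marked by p16 and p21, 1 rose and 4 fell, 23 missed the threshold, and the median was -0.15. Plat, Timp2 and Igfbp3 fell by 0.59, 0.32 and 0.31, Cxcl12 by 0.23, and Vegfa rose by 0.24. Without pair 1 the calls of Timp2 (-0.31), Igfbp3 (-0.29), Cxcl12 (-0.24) and Vegfa (0.17) ended, and without pair 2 also (-0.39, -0.32, -0.19 and 0.26). Those of Igfbp3 and Cxcl12 also ended with total count scaling (-0.20 and -0.12), that of Igfbp3 in DESeq2 with the block (-0.32) and that of Cxcl12 with the length correction (-0.13). Pairs 1 to 3 gave list medians of -0.33, -0.23 and 0.38, so the direction differed between pairs. In the fits without pairs 1, 2 and 3, 1, 1 and 15 genes of the list fell. Calls over all genes were also most numerous without pair 3.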

How the data were processed

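RNA sequencing counts per gene symbol, whole and unscaled, were deposited by the authors together with FPKM values. In these, 100% of FPKM values above 0 equalled the count over 1 length per gene and the library total, within 1e-06. The sources used here do not name the aligner, counter, strand setting or build. Of 18631 symbols, 16598 matched RefSeq on GRCr8, used for names and promoter sequences. Counts were filtered with filterByExpr, scaled with TMM and tested with edgeR 4.0.16 (quasi-likelihood, Benjamini-Hochberg over all genes) in R 4.3.3, checked on simulated data. Standard errors of edgeR log2 fold changes were derived as the absolute log2 fold change over the square root of the F statistic. The main fit had no block, and a fit with the replicate block was planned with it. Deviations of same-numbered libraries from their group means correlated at 0.68, 0.52 and 0.58 (-0.56 to -0.05 for other matches). Rises, falls, list counts and list medians are therefore those of the block fit, in place of the main fit. The main fit called 0 genes. The biological coefficient of variation was 19.7% without and 8.09% with the block, on 4 and 2 residual degrees of freedom. The pairing comes from titles and data, not from a statement in the labels.

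Members and gene lists were chosen with earlier results of these data known. Named were all members, Myc, Zbtb17, Map3k4, Skp2, Cdk2 and, per list, up to 3 called genes of at least 5 CPM with the largest change. One further gene and list of the plan are not reported here. Alternatives were DESeq2 1.42.0, limma 3.58.1 (voom, and log2(FPKM + 1) or log2(FPKM + 0.1)), other scalings and filters, a loess length correction (span 0.5), and leaving out libraries or pairs. Depth limits Cdkn1c most.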

Additional observations from a re-analysis of the deposited data

How the results depend on the processing

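Without the block, edgeR called 0 genes, 0 members and 0 of 203 pathway genes (these and the pathway counts below include 29 genes of the list not reported) under the other scalings and filters, the length correction and each left-out library, as did limma-voom and limma on log2 FPKM. DESeq2 called 699 genes, 2 members and 22 pathway genes. With the replicate block edgeR called 2898 genes, 4 members and 71 pathway genes, against 1590, 4 and 45 in DESeq2, 3641, 4 and 90 with total counts, and 2601, 4 and 70 with the length correction. Without pairs 1, 2 and 3 it called 1195, 736 and 4124 genes, 3, 3 and 7 members, and 38, 31 and 100 pathway genes, with 1 residual degree of freedom. Total count scaling moved the median of all genes by 0.107 with the block and the share of calls that were higher to 77.5%, against 48.7%. Gadd45g had the opposite sign with log2(FPKM + 1) and log2(FPKM + 0.1) (both 0.014), total counts (0.019, and 0.014 with the block), without knockdown library 2 (0.016) and without control library 3 (0.0031), and left-out libraries gave -0.217 to 0.016. Cdkn2a did so with the length correction (-0.097, and -0.092 with the block), without knockdown library 2 (-0.015) and without control library 1 (-0.082), and left-out libraries gave -0.082 to 0.173. The cause was not tested. The other 8 members kept their sign in all 22 alternatives. Number terms were called for 1748 to 3057 genes, against 2519. The order of control levels was the same in TMM-normalized CPM per length and without each control library.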
